A study of Homo sapiens with 8 samples.

Results

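The ARHGEF16-TP73 window is a 320 kb stretch of chromosome 1, from 3360000 to 3680000 in hg19, that was profiled for binding of p63 in the human squamous cell carcinoma lines CAL27 and SCC13. A listed p63 region was counted as a member when its midpoint fell in the window. This gave 17 of the 13829 CAL27 regions and 7 of the 5886 SCC13 regions. All 7 SCC13 members had the same start and end as a CAL27 member, so the window held 17 distinct regions among the 15267 distinct regions of both lists. Identical coordinates were not particular to the window: all 4448 SCC13 regions that overlapped a CAL27 region, 75.6% of that list, had them.

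Chromatin immunoprecipitation and sequencing with an antibody to p63 was done in 2 samples of each line, and 2 further samples of each line are titled none. Both lines carry the genotype label WT and the treatment label None. CAL27 cells were grown in DMEM F:12 with fetal serum, and SCC13 cells in serum-free keratinocyte medium supplemented with BPE, EGF and calcium chloride, so line and medium cannot be told apart. Each line is 1 established culture, and the lists come as 1 per line with both p63 samples named for it. No depth, score, summit or spread between replicates was given, so no test was made and a region missing from a list was not shown to be unbound. The window was chosen by its number of listed CAL27 regions and their spacing, so these values are descriptions.

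TP73 encodes p73, a transcription factor of the p53 family and a close relative of p63, which TP63 encodes and which maintains basal cells of squamous epithelia. The family binds related DNA elements made of half-sites with a central CATG or a close variant of it. TP73 has an upstream promoter, which gives forms with a full transactivation domain, and an internal promoter, which gives the shorter ΔNp73 forms. ARHGEF16 encodes a guanine nucleotide exchange factor, a protein that activates small GTPases. Between both genes the RefSeq gene table lists MEGF6, which encodes a protein with EGF-like repeats, the microRNA gene MIR551A, the lncRNA LOC105378608, TPRG1L and WRAP73.

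The transcription starts of TP73 are shown because the CAL27 cluster with the most regions lay inside this gene, some distance past its beginning. RefSeq listed 3 starts for TP73 on the plus strand of GRCh38.p14, each with 250 bases before and 50 bases from the start. The first window, chr1:3652266-3652565, is that of the upstream start. The second, chr1:3690422-3690721, lay 38.2 kb downstream of the first within that build, and the third, chr1:3697796-3698095, lay 45.5 kb downstream. Capitals mark CATG, the 4-letter core of a p53-family half-site, which reads the same on both strands.
TP73 start 1: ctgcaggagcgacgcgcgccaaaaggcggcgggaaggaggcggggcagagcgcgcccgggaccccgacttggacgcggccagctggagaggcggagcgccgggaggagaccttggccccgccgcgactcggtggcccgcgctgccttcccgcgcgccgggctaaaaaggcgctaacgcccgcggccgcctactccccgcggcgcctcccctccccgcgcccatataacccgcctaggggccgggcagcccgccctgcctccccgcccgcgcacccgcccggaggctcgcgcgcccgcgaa
TP73 start 2: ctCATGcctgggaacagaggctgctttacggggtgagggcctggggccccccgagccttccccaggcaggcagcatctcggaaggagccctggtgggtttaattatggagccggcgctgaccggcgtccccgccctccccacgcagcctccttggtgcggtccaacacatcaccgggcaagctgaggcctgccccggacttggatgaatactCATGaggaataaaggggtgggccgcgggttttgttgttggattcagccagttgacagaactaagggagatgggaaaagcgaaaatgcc
TP73 start 3: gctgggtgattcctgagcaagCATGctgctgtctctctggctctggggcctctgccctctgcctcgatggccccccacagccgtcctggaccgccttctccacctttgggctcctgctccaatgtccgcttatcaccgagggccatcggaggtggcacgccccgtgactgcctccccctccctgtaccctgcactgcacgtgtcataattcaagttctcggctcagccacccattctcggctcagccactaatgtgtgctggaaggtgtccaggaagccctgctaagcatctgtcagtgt
The letters CATG were absent from the first window, occurred 2 times in the second and 1 time in the third, against 54.9% of 35116 RefSeq promoter windows of the same length with at least 1. In the second window the nearer copy began 38 bases before the start. The complete p53-family half-site was searched as RRRCWWGYYY, where R is A or G, W is A or T and Y is C or T. This 10-letter pattern reads the same on both strands and can contain CATG. An exact match was found in none of the 3, nor in the window of the single ARHGEF16 start, and in 6.63% of all windows. Sequences that differ from the pattern at any letter were not counted, so a family element with a mismatch could be present in these windows. TGANTCA, the AP-1 element, and TGTTTAC, a forkhead element searched on both strands, were also found in none of these 4 windows, against 7.71% and 3.42% of all. The first TP73 window and the ARHGEF16 window were rich in G and C, at 78.7% and 81.7%, and both other TP73 windows had 61.3% each, beside a median of 58.7% over all windows. These letters describe the printed windows and are not binding sites, and the sequences under the p63 regions themselves were not analysed here.

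The 17 regions fell into 3 parts of the window. By the rounded hg19 spans given with the window, 3.57 to 3.65 Mb for TP73 and 3.37 to 3.40 Mb for ARHGEF16, TP73 held 8 CAL27 regions and 5 SCC13 regions. ARHGEF16 held 4 CAL27 regions and 1 SCC13 region, and the 170 kb between both spans held 5 CAL27 regions and 1 SCC13 region. No region of either list lay in the window before the ARHGEF16 span or after the TP73 span. Per 10 kb, ARHGEF16 had 1.33 CAL27 regions, TP73 had 1.00 and the stretch between them 0.294. In SCC13 the same densities were 0.333, 0.625 and 0.0588. Gene ends are known here only to within 5 kb, so the order of both CAL27 densities is not firm, and exons and introns were not analysed.

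**Figure D1:**
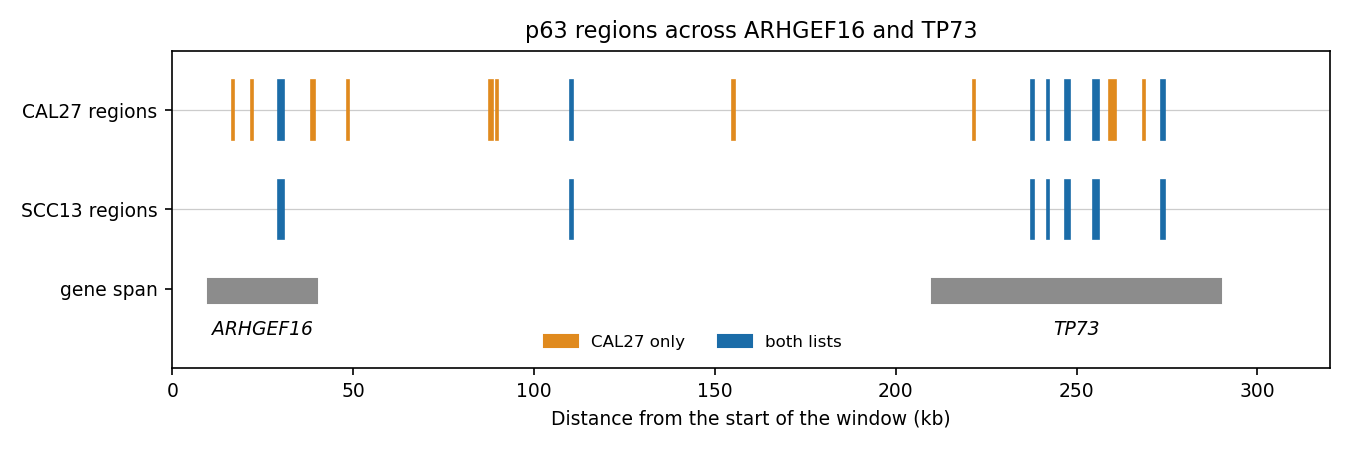
Position of each p63 region in the ARHGEF16-TP73 window, in kb from the start of the window, with CAL27 above SCC13 and the rounded spans of both genes below; bars are drawn to the width of the regions. In TP73 5 of 8 CAL27 regions were also listed in SCC13, in ARHGEF16 1 of 4, and between both spans, where other genes are not drawn, 1 of 5.

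Within TP73, the first region stood alone and the other 7 formed a close run. The first, at 3581501 to 3581947, was centred 11.7 kb past the rounded start of the gene, was 447 bp wide and was listed in CAL27 only. The next midpoint lay 16.1 kb farther on. The run covered 3597452 to 3634369, with its first midpoint 27.8 kb and its last 63.9 kb past the rounded start, that is from 34.8% to 79.8% of the span. The rest of the gene toward its end held no listed region in either line.

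The run opened with 2 regions that both lines listed. The first of them, at 3597452 to 3598227, was 776 bp wide, and the second, at 3601775 to 3602332, was 558 bp wide and the narrowest SCC13 member. Of all regions, 17.0% in CAL27 and 14.3% in SCC13 were at most as wide as the second.

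The middle of the run held the 3 widest regions of TP73, side by side. Both lines listed 3606767 to 3608236, 1470 bp wide and centred 37.5 kb past the rounded start of the gene. Both also listed 3614540 to 3616248, 1709 bp wide and centred 45.4 kb past it, and this was the widest SCC13 member. These distances, in hg19 and uncertain by 5 kb, stand beside 38.2 kb and 45.5 kb for the second and the third RefSeq start in GRCh38.p14. The midpoints of these 2 regions were 7.89 kb apart, and those 2 starts 7.37 kb apart. Positions were not matched between the builds, so whether either region covers a start was not determined. The third wide region, at 3618931 to 3621014, began 2682 bp after the end of its neighbour, was 2084 bp wide and was listed in CAL27 only.

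Toward the end of the run, the region at 3628320 to 3629033, 714 bp wide, was listed in CAL27 only. The last, at 3633391 to 3634369, 979 bp wide, was listed in both lines. Neighbouring midpoints of the 7 CAL27 regions were 4.21 to 8.70 kb apart. In SCC13 the missing pair left a space of 18.5 kb before the last region, so that joining of midpoints up to 12.5 kb apart gave a group of 4 there, from 3597452 to 3616248, and left the last region on its own.

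A second CAL27 cluster, called the ARHGEF16 cluster here, began in that gene and ran past its rounded end. Most of this cluster was absent from the SCC13 list. Its 5 CAL27 regions ran from 3376484 to 3408939, with midpoints 5.20 to 9.76 kb apart. The first 2, at 3376484 to 3377196 and 3381674 to 3382408, were 713 and 735 bp wide and were listed in CAL27 only. The third, at 3389311 to 3391011, was centred 20.2 kb past the rounded start of the gene, was 1701 bp wide and was the only one of the 5 listed in SCC13 as well. The fourth, at 3398306 to 3399331, was 1026 bp wide and lay within 5 kb of the rounded end of the gene, so its place inside the gene is uncertain. The last, at 3408225 to 3408939, was 715 bp wide and was centred 8.58 kb past that end. Both of these were listed in CAL27 only.

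The stretch between the ARHGEF16 cluster and TP73 was sparser. MEGF6 and the other genes listed there were not placed in hg19, so regions of this stretch may lie inside genes. It held a close CAL27 pair, at 3447444 to 3448703 and 3449505 to 3450049, 1260 and 545 bp wide with midpoints 1.70 kb apart, the smallest distance in the window. Neither was listed in SCC13. A region at 3469876 to 3470675, 800 bp wide, was listed in both lines. The last, at 3514664 to 3515569, was 906 bp wide, was listed in CAL27 only and was centred 54.9 kb before the rounded start of TP73. The widest spaces between neighbouring midpoints were 66.6 kb in CAL27, from this region to the first of TP73, and 127.6 kb in SCC13, from the region at 3469876 to the run in TP73.

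Sharing between the lines was uneven along the window. Of the 17 CAL27 members 7 were listed in SCC13, or 41.2% (95% exact binomial interval 18.4 to 67.1, counting error only), against 32.2% of all CAL27 regions. All 7 SCC13 members were listed in CAL27, against 75.6% of all SCC13 regions. The window was chosen for its many CAL27 regions, so this comparison is not independent of that choice. In the 7-region run 5 were in both lists, or 71.4% (29.0 to 96.3), and of the other 10 CAL27 members 2 were, or 20% (2.52 to 55.6). The intervals are wide, since these are few regions, and they treat neighbouring regions as independent, which was not tested. The shares of the run and of the window were not tested against those of the lists.

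Members listed in both lines had a median width of 979 bp, and those listed in CAL27 only one of 725 bp. Over the whole CAL27 list the same medians were 934 bp and 723 bp. Regions in both lists had identical coordinates in each, so their widths are not separate measurements of the lines. Whether the way the lists were built widened them was not tested. The widths overlapped, from 558 to 1709 bp for the 7 in both lists and from 447 to 2084 bp for the 10 of CAL27 only. All 17 CAL27 members had a median of 800 bp, against 791 bp for the whole CAL27 list, and 9 of them were wider than that list's median. The 7 SCC13 members had a median of 979 bp, against 862 bp for the whole SCC13 list, and 4 of them were wider than it. Regions of 1500 bp or more numbered 3 of 17 members in CAL27 and 2 of 7 in SCC13, against 5.93% and 8.46% of the whole lists of CAL27 and SCC13.

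**Figure D2:**
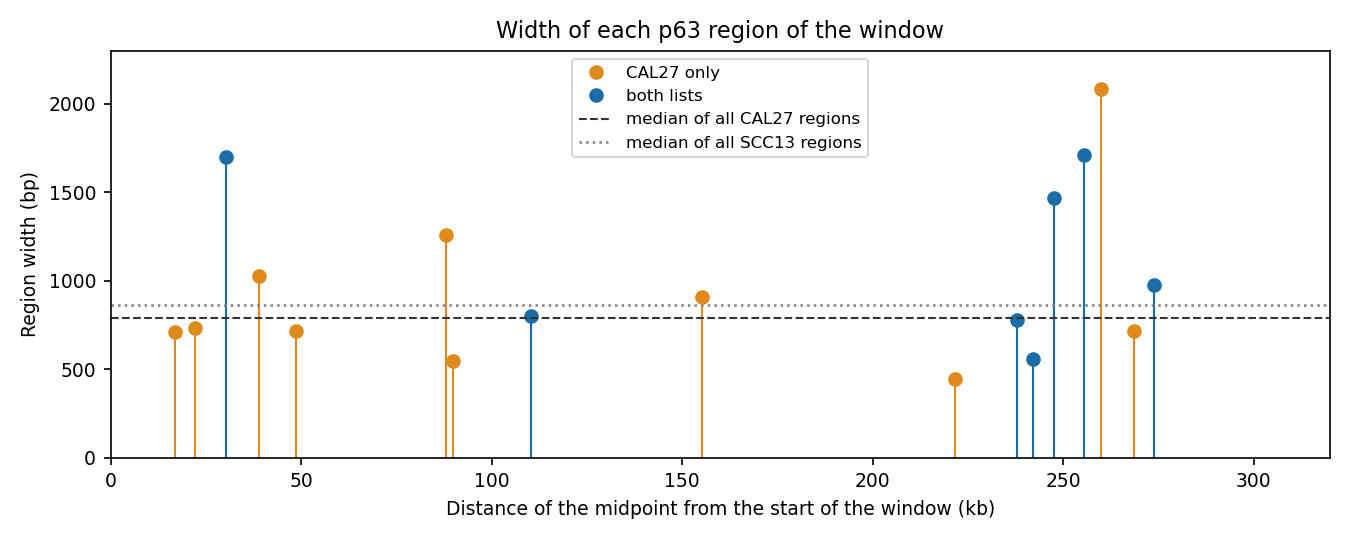
Width in bp of each of the 17 regions of the window against the distance of its midpoint from the start of the window in kb; dashed and dotted lines mark the medians of the whole CAL27 and SCC13 lists, 791 and 862 bp. The 3 tallest points of TP73 are neighbours, and the tallest, 2084 bp, was listed in CAL27 only.

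Inside the TP73 run, width and sharing did not go together in every region. The 2084 bp region was at least as wide as 99.2% of the CAL27 list, and was absent from SCC13. Of the 117 CAL27 regions at least as wide, 74 were also listed in SCC13, or 63.2%, and 43 were not, so it was 1 of many such regions. The 558 bp region was in both lists, while 15.7% of the 2072 CAL27 regions within 10% of its width were. For the 447 bp region at the head of TP73, listed in CAL27 only, the share among regions of like width was 5.35%. These shares by width carry the same limit, since regions in both lists had identical coordinates. Absence of the 2084 bp region from the SCC13 list was not followed to reads, which were not used here.

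**Figure D3:**
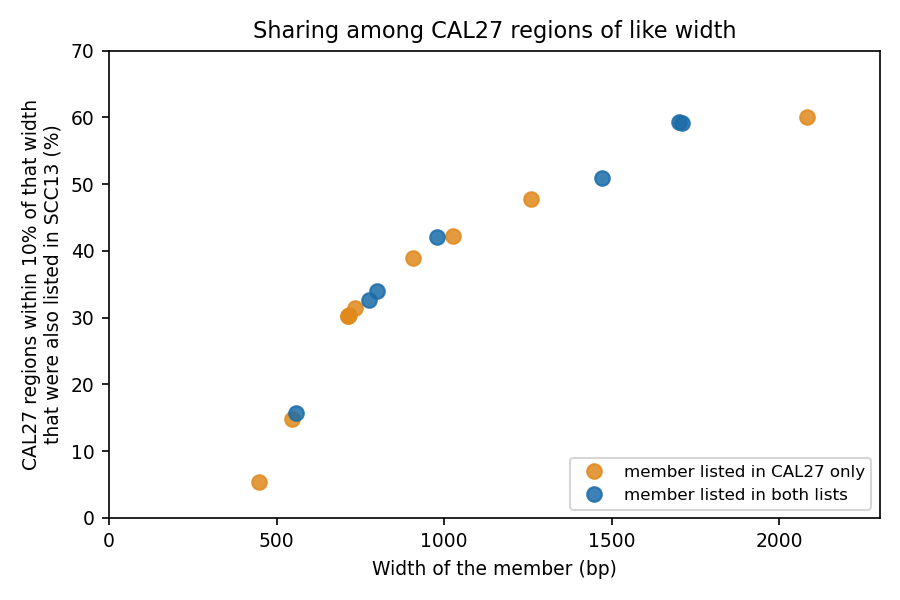
For each of the 17 members, its width in bp and the percentage of all CAL27 regions within 10% of that width that were also listed in SCC13, with members coloured by whether they were in both lists or in CAL27 only. The percentage was 5.35% at 447 bp and 60% at 2084 bp, and members of both kinds lie between 558 and 1260 bp.

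Set against the other clusters of the CAL27 list, the TP73 run held the most regions but was not the most tightly packed. A cluster here is a run of at least 5 regions in which each midpoint lay no more than 12.5 kb from the next, and CAL27 had 13. TP73 ranked first of the 13 by its 7 regions and by the 8290 bp that they covered, and eighth by regions per length, with 1.90 per 10 kb. The 11 clusters outside the window had 1.53 to 3.04 regions per 10 kb, with a median of 2.12, and the tightest was a cluster of 5 on chromosome 6 over 16447 bp. First place by number follows from how the window was chosen, and the working name of densest cluster did not hold for spacing. The ARHGEF16 cluster, with 1.54 per 10 kb, ranked twelfth.

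The widest region of the TP73 run was 2084 bp, against 1433 bp in the cluster on chromosome 6 at 56507331 and 1629 bp in the cluster on chromosome 19 at 38456538, the 2 next by number with 6 regions each. Over the 11 clusters outside the window the widest region had a median of 1433 bp and reached 2048 bp, in a cluster on chromosome 7. Of the 7 regions of the run 5 were in SCC13, against 2 of 6 on chromosome 6 and 3 of 6 on chromosome 19. Over the 11 clusters outside the window the share listed in SCC13 was 20 to 100%, with a median of 50%, so that of the run, 71.4%, and that of the ARHGEF16 cluster, 20%, both lay within their range. The 2 clusters of the window were 188.5 kb apart from edge to edge. No other pair of the 13 was closer than 5764 kb, the distance of 2 clusters on chromosome 6.

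**Figure D4:**
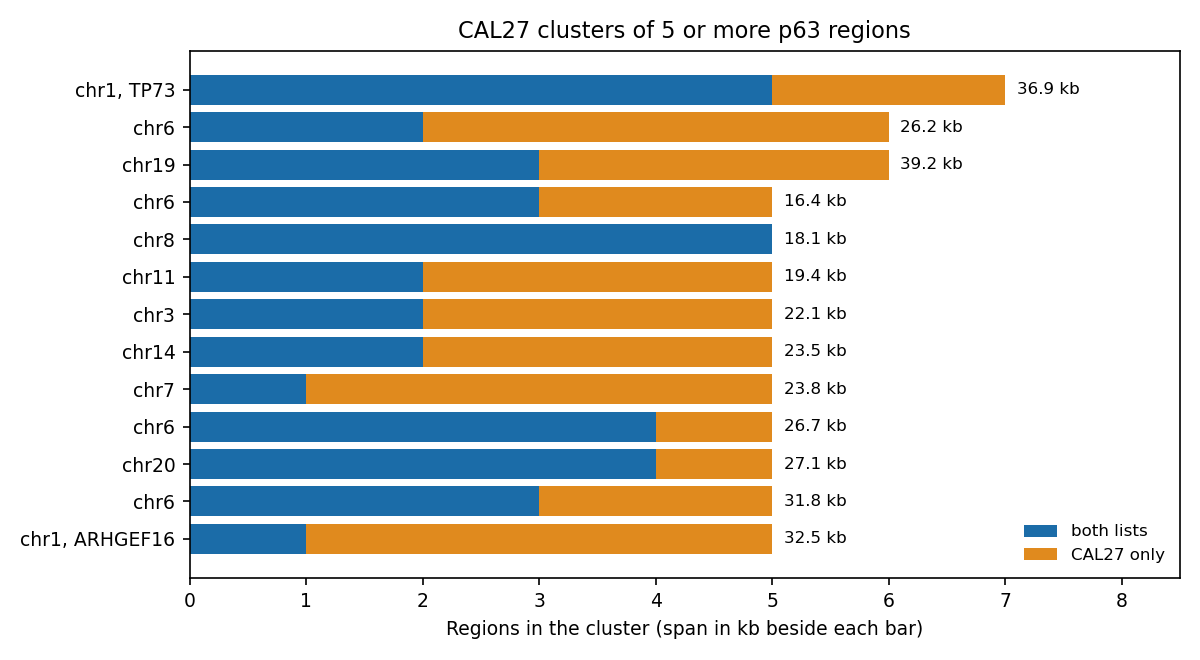
Number of p63 regions in each of the 13 CAL27 clusters of 5 or more, split into regions listed in both lines and in CAL27 only, with the span in kb beside each bar. TP73 has the longest bar, with 7 regions, 5 of them in both lists, and the ARHGEF16 cluster has 5, with 1 in both.

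With the genome cut into windows of 320 kb aligned to this one, from the first to the last region of each chromosome, the ARHGEF16-TP73 window had as many CAL27 regions as any. Its 17 CAL27 regions were matched by 1 other window of 9141, on chromosome 21 at 43040000 to 43360000, against a median of 1 and a mean of 1.51. Its 7 SCC13 regions were matched or exceeded in 10 other windows of 9129, with a maximum of 8, a median of 0 and a mean of 0.645. The chromosome 21 window was among those 10, with 7. On chromosome 1 no window had more in either line, but in SCC13 those starting at 24480000 and 209440000 also had 7. The median distance between neighbouring midpoints was 8.39 kb for CAL27 members and 13.2 kb for SCC13 members, against 82.6 kb in the whole CAL27 list and 230.8 kb in the whole SCC13 list.

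**Figure D5:**
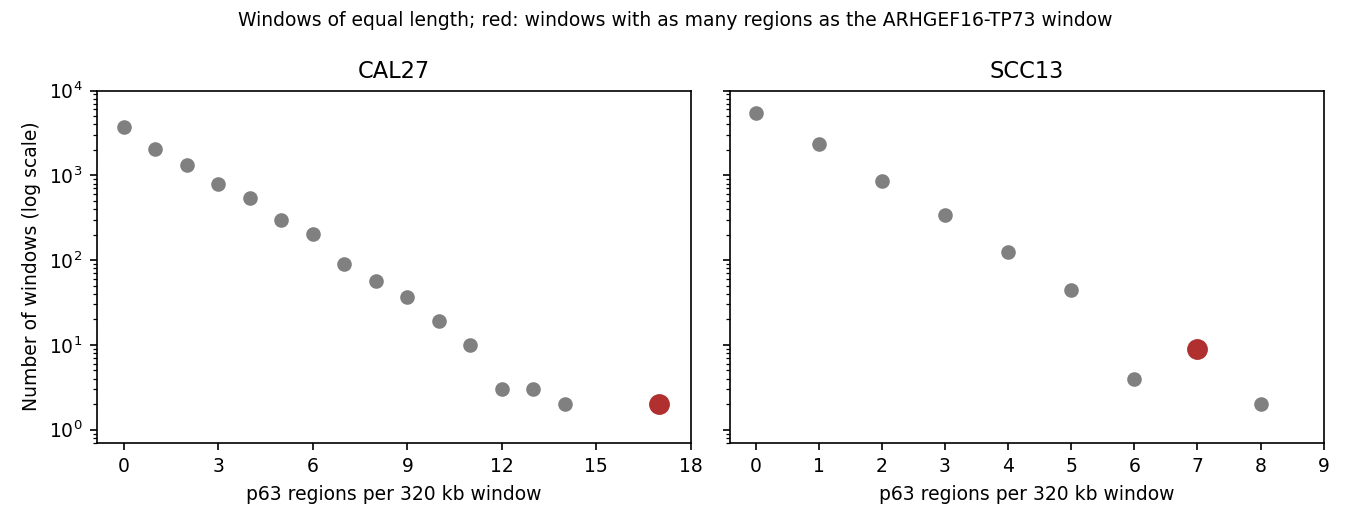
Number of 320 kb windows (log scale) with each number of p63 regions, for CAL27 on the left and SCC13 on the right; the red point stands for all windows with as many regions as the ARHGEF16-TP73 window. It lies at 17 regions in CAL27, the highest number, and at 7 in SCC13, where the highest was 8.

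The next region after the window, at 3773329 to 3774432 and 1104 bp wide, was in both lists, with its midpoint 140.0 kb past that of the last member. On the other side the nearest CAL27 region, at 3321706 to 3322212, was 507 bp wide, was listed in CAL27 only and lay 54.9 kb before the first member. In SCC13 the nearest region on that side was 1027 kb before its first member.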

How the data were processed

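Regions bound by p63 were listed for CAL27 and SCC13, in 1 list per line that the labels name for both p63 samples. The authors deposited 3 columns per list, which hold chromosome, start and end, and no score or other measured value. Per the submitters' processing notes the tools were MACS2, Bowtie2 and SAMtools 1.8 and the build was hg19; their roles, the threshold for a peak, any control and the merging of replicates were not given in the sources used here. Lists called on a common set of positions give identical coordinates, and merging can widen regions.

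Positions are counted from 1. Members were regions with a midpoint in the window. Regions of the lists matched where they shared 1 bp or more, and clusters joined midpoints up to 12.5 kb apart. Every member was named, with the 2 CAL27 clusters next in number for comparison. Percentages have exact Clopper-Pearson intervals at 95%, which cover counting error only. The window, members and comparisons were chosen with earlier results of these data known. Gene spans are the rounded hg19 values given with the window. Names (both genes matched) and promoter windows are from RefSeq GRCh38.p14, another build, and no position was converted. Scripts used Python 3.11.15, numpy 2.4.6, pandas 2.3.3, scipy 1.17.1 and matplotlib 3.10.9, and were tested on simulated lists.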

Additional observations from a re-analysis of the deposited data

How the results depend on the processing

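No paired analysis was possible because each line has 1 list for both replicates, so no replicate could be left out either. The 7 members in both lists were the same number under all 3 other matching rules, which identical coordinates ensure. Membership by any overlap left 17 CAL27 and 7 SCC13 regions, and a window widened by 50 kb on each side had 18 and 7. Counting only regions wider than their list's median, the window held 9 in CAL27 and 4 in SCC13, as such a filter removes about that part of any list. The largest group fell to 2 regions in each line when midpoints were joined within 5000 bp, since most neighbours in TP73 are farther apart than that, and joining within 25000 bp gave 8 in CAL27 and 5 in SCC13. At 5000 bp the largest group of the window ranked 86 in CAL27, where the largest of the list held 5 regions. In SCC13 it ranked 8, and the largest held 3. At 25000 bp, too, the TP73 group was not the one with the most CAL27 regions, with a rank of 6 and a largest group of 11. With windows shifted so that a boundary cuts this one in its middle, the 2 shifted windows of 320 kb also took in regions outside it. The fuller of these 2 in each line ranked 6 in CAL27, with 11 regions, and 9 in SCC13, with 6. The geometric mean width was 917 bp for CAL27 members and 1054 bp for SCC13 members, beside medians of 800 and 979 bp. Over the whole lists the geometric mean was 806 bp in CAL27 and 856 bp in SCC13. Depth is unknown, so differences between the lists cannot be assigned to the cells.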
